A study of Homo sapiens with 4 samples.

Results

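Aminoacyl-tRNA synthetases are the enzymes that join each amino acid to its tRNA, the step at which the genetic code is read into protein. Human cells keep 1 set in the cytosol and another, encoded by other nuclear genes, that is imported into mitochondria and charges the tRNAs of mitochondrial DNA. The genes described here are 36 named synthetase genes, chosen by symbol and all found in the deposited gene table, out of 47251 genes listed. They comprise 19 genes of the cytosolic set, 16 of the mitochondrial set, and WARS, the tryptophanyl enzyme, which is set apart because interferon induces it. GARS and KARS each supply both compartments, and EPRS joins 2 activities, for glutamate and proline, in 1 chain. In cultured cells, cytosolic synthetase genes are known targets of ATF4, the transcription factor that answers to amino acid shortage. Several cytosolic enzymes sit in the multisynthetase complex on the scaffold proteins AIMP1, AIMP2 and EEF1E1.

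RNA was sequenced from AGS cells, a line from a human gastric adenocarcinoma, in 4 libraries. The sh-MFAP2 group, here also called silenced, held 2 libraries of cells with MFAP2 silencing by a single shRNA (a hairpin RNA directed against the mRNA of MFAP2, a microfibril protein), and the control group held 2 libraries of cells with a scrambled shRNA. Both groups carried a lentiviral vector with green fluorescent protein, were selected in puromycin and were grown in DMEM with serum. The labels do not say whether libraries of 1 group came from separate cultures, so p-values measure the spread between these libraries, which may be technical. In bulk RNA such as this, fewer cells expressing a gene and less RNA per cell cannot be told apart.

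MFAP2 itself was listed at 0 FPKM in both silenced libraries and at 0.0116 and 0.0138 FPKM in control replicates 1 and 2, values too low to check the labels. FPKM is the number of fragments scaled by the length of the gene and the depth of the library. Steps between low values implied about 54730000 to 74865000 reads per library, which are inferred and not counts of the authors. The epithelial markers EPCAM, KRT8, KRT18, KRT19, CLDN7 and ELF3 were at 24.4 FPKM or more in every library, whereas CLDN4 was listed at 47.1 and 0.015 FPKM in the silenced libraries and at 0.291 and 0.551 FPKM in the controls. Of 11 markers of immune, endothelial and stromal cells, 9 were under the 1 FPKM limit of the test in the mean, PTPRC, CD3E, PECAM1 and VWF being at or near 0. The exceptions were COL1A1 and ACTA2, at 1.24 to 4.92 FPKM.

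Because sequence near the start sites of these genes bears on how they are known to be regulated, promoter windows of RefSeq (GRCh38.p14, 250 bases before to 50 bases after a start) were searched for short motifs on both strands. Windows were at hand for 30 of the 36 genes. The core of the amino acid response element, TGATGNAA, which ATF4 binds together with a C/EBP partner, was found for 7 of the 16 cytosolic genes with a window, WARS included, for 1 of the 14 mitochondrial genes, and for 4.46% of 27305 genes of all kinds. The windows are shown because the same 8 letters recur in 6 of the 7 cytosolic genes, read on either strand. Each line gives the strand of the gene from 5′ to 3′ with the match in capitals. The last but one is the mitochondrial YARS2, and the last is ASNS, asparagine synthetase, a textbook target of ATF4.
AARS (chr16:70289677-70289702, minus strand): ttctcgcagTTGCATCAgccaagtta
CARS (chr11:3057409-3057434, minus strand): gggcggcggTTGCATCAgattctagg
IARS (chr9:92293694-92293719, minus strand): ttcagcgcgTTGCATCAcctccgtgc
MARS (chr12:57488055-57488080, plus strand): cggttccggTTGCATCAgcgagggat
TARS (chr5:33440958-33440983, plus strand): gcctttcgaTTGCATCAgctggtcca
NARS (chr18:57621806-57621831, minus strand): tacgctctcTGATGCAAcgccggaat
GARS (chr7:30594836-30594861, plus strand): acgcggcgaTTTCATCAtgctccgag
YARS2 (chr12:32756078-32756103, minus strand): ccacactgcTGATGGAAaaattaagt
ASNS (chr7:97872460-97872485, minus strand): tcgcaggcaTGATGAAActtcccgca

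For WARS a window held the interferon response element (GAAA, any 2 bases, GAAA), found for EARS2 among the mitochondrial genes and for 4.38% of the 27305 genes. A match is shared with ISG15, an antiviral ubiquitin-like protein and a standard interferon target. These windows are shown because WARS and ISG15 are compared in level further on. Such a match is a description of letters and not a site of binding.
WARS (chr14:100375384-100375411, minus strand): ttcagaaggGAAACTGAAAgaaagaggg
ISG15 (chr1:1013381-1013408, plus strand): cgggaaaggGAAACCGAAActgaagcca
The interferon gamma activation site TTCNNNGAA was also found for WARS, for 3 of the 16 cytosolic genes in all and for 2 of the 14 mitochondrial genes, against 9.38% of all genes. The NRF1 motif (GCGCA, any base, GCGC) was found for 3 of 16 and 3 of 14, against 6.98%, and the E-box CACGTG for 1 of 16 and 3 of 14, against 8.77%.

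All 20 cytosolic genes and 15 of the 16 mitochondrial genes averaged 1 FPKM or more, the limit set for the test. On the gene table, which is scaled per length, the median gene mean was 25.1 FPKM for the 20 cytosolic genes and 6.71 FPKM for the 16 mitochondrial genes. With the FPKM of each gene's transcripts summed instead, these medians were 41.6 and 12.0 FPKM. The cytosolic genes ranged from 5.20 FPKM for CARS to 49.1 FPKM for KARS in the mean. The mitochondrial genes ranged from 0.00921 FPKM for PARS2, the prolyl enzyme, to 54.3 FPKM for IARS2, the isoleucyl enzyme, which was the highest of all 36. Gene values were lower than the summed transcripts by a factor that differed between genes, from 1.00 for FARSB to 6.04 for CARS2, so the order of genes depends on the table. IARS2 ranked at 4 of 36 by summed transcripts, after KARS, RARS and QARS.

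**Figure D1:**
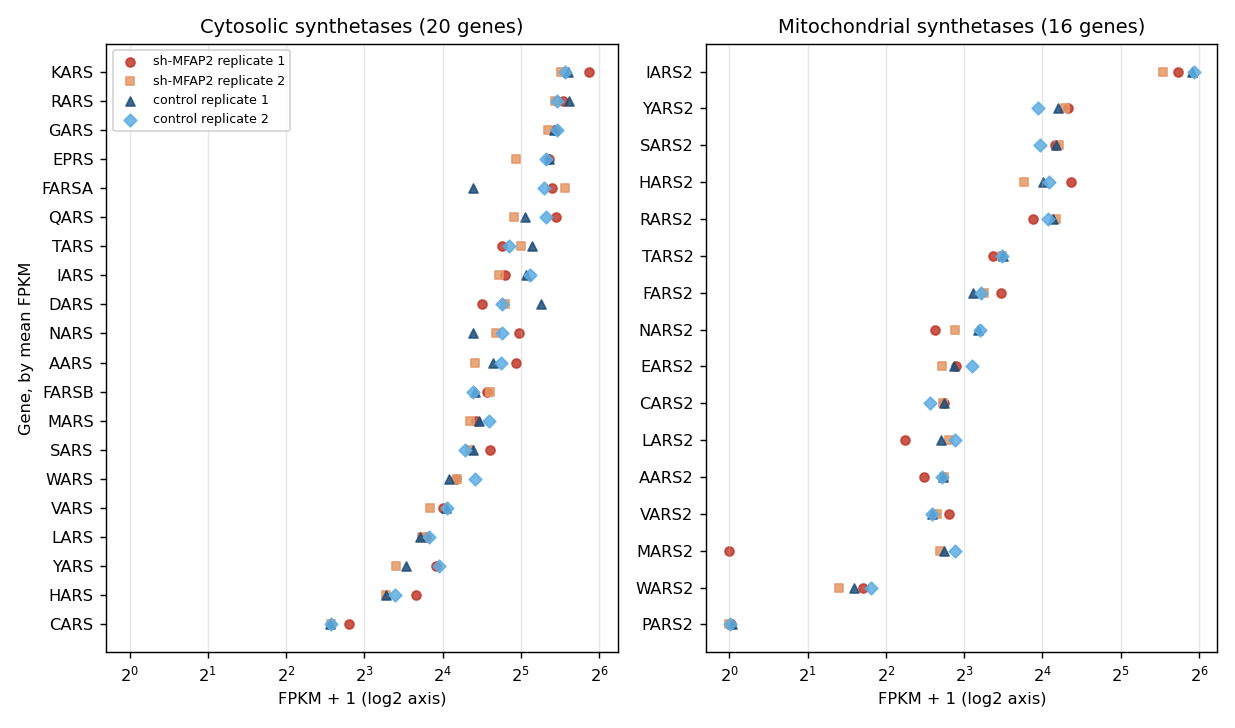
FPKM + 1 of each synthetase gene on a log2 axis, for the 20 cytosolic genes (left) and the 16 mitochondrial genes (right), with 1 point per library and genes ordered by mean. Most genes keep the 4 libraries close together, while MARS2 stands at 0 FPKM after silencing replicate 1 and PARS2 is near 0 in every library.

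Enzymes for the same amino acid were set side by side in 14 pairs, 1 cytosolic and 1 mitochondrial gene each. In 10 pairs the cytosolic gene was higher than its partner in all 4 libraries. WARS exceeded WARS2, the least abundant mitochondrial gene that was tested, by a ratio of 7.53 to 10.4. IARS and IARS2 stood the other way round, with a ratio of IARS to IARS2 of 0.516 and 0.557 in sh-MFAP2 and 0.551 and 0.559 in control, and the order was the same by summed transcripts. HARS lay below HARS2 in all 4 libraries on the gene table but above it in all 4 by summed transcripts, so no order is given for the histidyl pair. The ratio of CARS to CARS2 ran from 0.862 to 1.05 on the gene table, on both sides of 1, and that of YARS to YARS2 from 0.514 to 1.01. By summed transcripts CARS was below CARS2 and YARS above YARS2 in all 4 libraries, and the cytosolic gene was higher in 12 of the 14 pairs.

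Between the silenced and the control cells, 22 of the 35 members tested overlapped in level. No member was called a differentially expressed gene (DEG, p under 0.01 and adjusted p under 0.05 in limma with Benjamini-Hochberg adjustment), where 27 of 9873 genes tested were called (0.273%). The smallest absolute log2 fold change among those 27 was 1.64, larger than the estimate of every member, so changes of the size estimated here could hardly have been called with 2 libraries a group. At an unadjusted p under 0.05, 2 of the 35 members tested passed, both lower in sh-MFAP2, or 5.71%, against 12.3% of all genes tested (3.89% higher and 8.41% lower). Without control replicate 1 the count of such members was 0, without control replicate 2 it was 1, and without sh-MFAP2 replicate 2 it was 4. Both silenced libraries lay above both controls for 6 members and below both for 7, against 17.5% and 31.4% of all genes tested. The median log2 fold change (sh-MFAP2 minus control, on FPKM + 1) was -0.03 over the 19 cytosolic genes and -0.07 over the 15 mitochondrial genes, beside -0.05 over all genes tested. The cytosolic median was 0.04 with scaling by median of ratios. Excepting MARS2, whose estimate was -1.47, the estimates ran from -0.43 for NARS2 to 0.64 for FARSA.

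**Figure D2:**
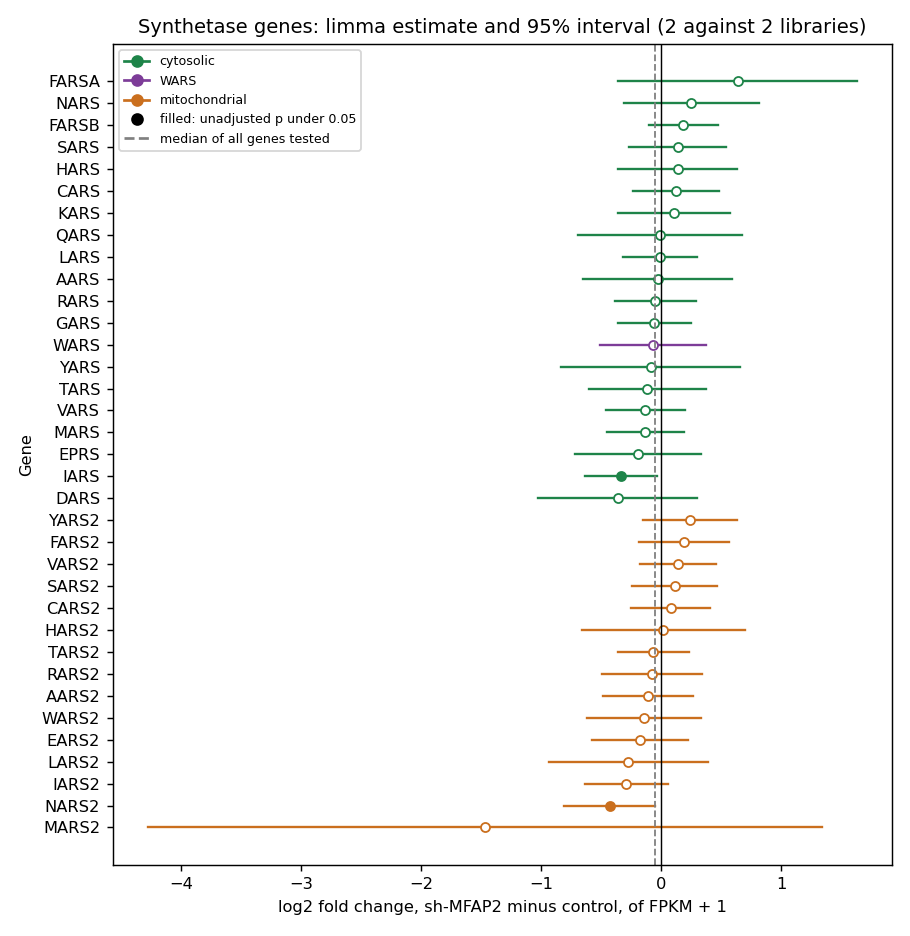
Log2 fold change of each tested synthetase gene, sh-MFAP2 minus control, with its 95% interval from limma, for cytosolic genes, WARS and mitochondrial genes (filled where the unadjusted p is under 0.05), and a dashed line at the median of all genes tested. The intervals of all genes but IARS and NARS2 include 0, and the interval of MARS2, from -4.27 to 1.34, is the widest.

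The cytosolic and the mitochondrial set were compared in each library by the median log2(FPKM + 1) of the tested genes of each set, WARS left out. The cytosolic median exceeded the mitochondrial one by 1.87 and 1.80 in sh-MFAP2 replicates 1 and 2 and by 1.35 and 1.56 in control replicates 1 and 2. The gap was thus wider in both silenced libraries. Without MARS2, listed at 0 in one of them, it was 1.63 and 1.61 after silencing and 1.32 and 1.55 in control, so that control replicate 2 came close to the silenced libraries. Gene by gene the sets hardly parted, since their median log2 fold changes differed by 0.05. This difference ran from -0.10 without sh-MFAP2 replicate 1 to 0.26 without sh-MFAP2 replicate 2, so that single libraries decide its sign. Without sh-MFAP2 replicate 2 the cytosolic median was 0.17. No test was made of the sets, since the genes were chosen with results of these data known.

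Within the cytosolic set, the 8 enzymes of the multisynthetase complex (EPRS, IARS, LARS, MARS, QARS, RARS, KARS and DARS) had a median log2 fold change of -0.09, with 7 estimates under 0 and KARS at 0.11, where 58.0% of all genes tested had an estimate under 0. With scaling by median of ratios 4 of the 8 were under 0 and the median was -0.02, as LARS, QARS and RARS lay near 0 and turned. For the other 11 cytosolic genes the median was 0.12, with 6 estimates above 0. IARS, the isoleucyl enzyme of the complex, had 26.9 and 25.4 FPKM in the silenced libraries and 32.6 and 33.7 FPKM in the controls. Both silenced libraries were below both controls. Its log2 fold change was -0.33 (standard error 0.104, 95% interval -0.63 to -0.04), with an unadjusted p of 0.0362 and an adjusted p = 0.394 from limma over 9873 genes. DARS, the aspartyl enzyme, had 21.6 and 26.8 FPKM after silencing and 37.3 and 26.2 FPKM in control. Its groups overlapped, because sh-MFAP2 replicate 2 exceeded control replicate 2, and its estimate of -0.36 was within the spread of replicates (standard error 0.232). EPRS had 40.1 and 29.6 FPKM after silencing against 40.1 and 39.0 FPKM in control, so that only sh-MFAP2 replicate 2 was low.

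The scaffold genes of the complex were listed beside it. AIMP2 had 45.5 and 43.7 FPKM after silencing and 35.7 and 35.98 FPKM in control, with both silenced libraries above both controls. The AIMP2 estimate was 0.31 (standard error 0.102), with an unadjusted p of 0.0427 and an adjusted p = 0.398 in limma. AIMP1 had 22.6 and 24.4 FPKM against 16.7 and 20.5 FPKM, also without overlap, and EEF1E1 overlapped between groups at 18.3 to 27.0 FPKM. Thus 1 of the 3 scaffold genes passed an unadjusted p under 0.05, as 12.3% of all genes tested did, and none was a DEG.

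Among cytosolic enzymes outside the complex, FARSA and FARSB encode the alpha and beta subunits of the phenylalanyl enzyme. FARSA had the largest positive estimate of the 35 genes, with 41.2 and 46.5 FPKM after silencing and 20.01 and 38.4 FPKM in control. The groups did not overlap, yet the controls differed between themselves by a factor of 1.92. The log2 fold change of FARSA was 0.64 (standard error 0.350, 95% interval -0.36 to 1.63), or 0.18 without control replicate 1. Its partner FARSB had 22.7 and 23.3 FPKM against 20.3 and 19.9 FPKM, a tighter set of values with an estimate of 0.19 (standard error 0.0998, adjusted p = 0.497 in limma). NARS, the asparaginyl enzyme, had 30.4 and 24.6 FPKM against 19.9 and 26.0 FPKM, with groups that overlapped and an estimate of 0.25. At the other end of this group, VARS, the valyl enzyme, had 15.0 and 13.3 FPKM against 15.5 and 15.7 FPKM, with an estimate of -0.13.

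GARS, the glycyl enzyme of both compartments, was at 39.5 to 42.4 FPKM after silencing and at 42.1 to 43.1 FPKM in control, with groups that overlapped. KARS, the lysyl enzyme of both compartments, had 57.6 and 44.7 FPKM after silencing and 47.7 and 46.4 FPKM in control. The groups of KARS overlapped. For KARS the compartment depends on splicing, and its transcript of 15 exons (ENST00000319410) was listed at 19.6 and 17.0 FPKM after silencing and at 20.6 and 6.56 FPKM in control. The transcript of 14 exons (ENST00000302445) had 69.5 to 91.9 FPKM and led in every library. The low value of the first transcript belonged to control replicate 2, in which the second took 91.2% of the gene.

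For WARS, which was set apart, the groups overlapped. It had 17.1 FPKM in each silenced library and 15.9 and 20.2 FPKM in control replicates 1 and 2, so that the sh-MFAP2 values fell between the controls. The log2 fold change of WARS was -0.07 (standard error 0.156, adjusted p = 0.866 in limma), with a 95% interval from -0.51 to 0.38. It was -0.23 without control replicate 1 and 0.10 without control replicate 2. ISG15, whose promoter window shares the interferon motif, had 577 and 631 FPKM after silencing and 277 and 247 FPKM in control, a log2 fold change of 1.20 with both silenced libraries above both controls (adjusted p = 0.137 in limma).

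At an unadjusted p under 0.05, 3.89% of all genes tested were higher and 8.41% lower. Of 24 type I interferon genes tested, 15 were higher and 1, BST2, lower at an unadjusted p under 0.05. None was a DEG, and the median log2 fold change was 0.58. The higher genes of this list included OASL (adjusted p = 0.145 in limma), IFIT5, IRF7 and IFITM1. Genes induced by interferon gamma, the classic inducer of WARS, had a median of 0.19 over 14 tested. Of these, 3 were higher at an unadjusted p under 0.05, namely PSMB10, PSMB9 and TAP1 of antigen processing, and 0 lower. IRF1, a transcription factor of the interferon response, had 3.11 and 3.76 FPKM after silencing and 3.50 and 3.02 FPKM in control, values that overlapped between groups as those of WARS did. IDO1, the tryptophan-degrading enzyme that interferon gamma induces, was at or under 0.0453 FPKM in every library.

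**Figure D3:**
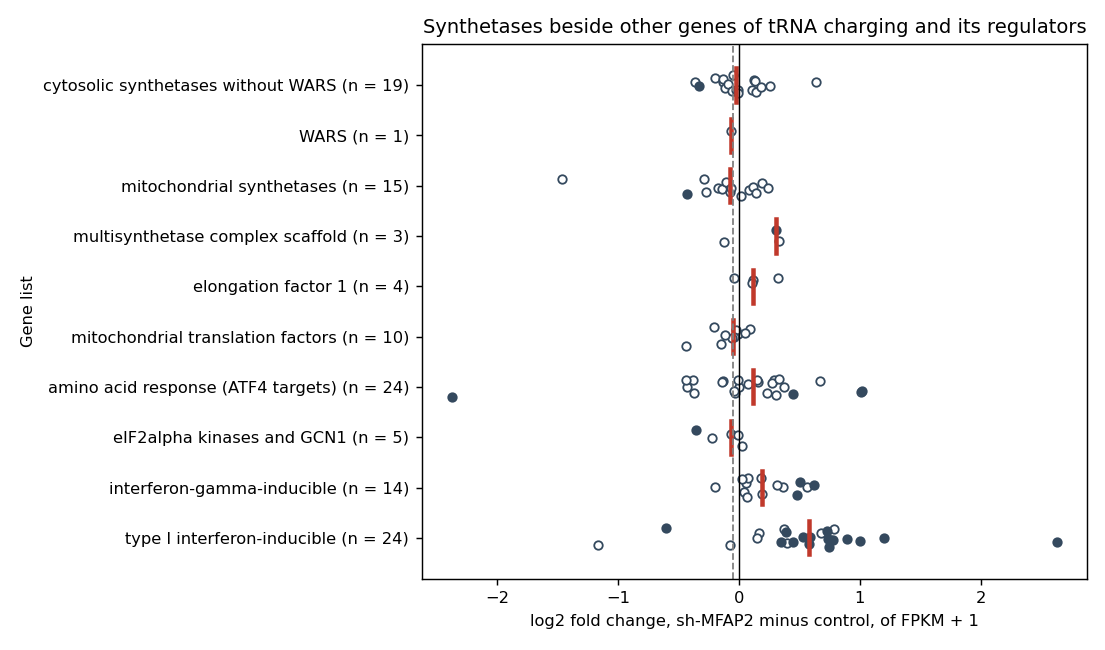
Log2 fold change of single genes by list, sh-MFAP2 minus control, with 1 point per tested gene (filled where the unadjusted p is under 0.05), a bar at each list's median and a dashed line at the median of all genes tested. The medians of the cytosolic and mitochondrial synthetases are -0.03 and -0.07, with MARS2 at -1.47 and FARSA at 0.64 farthest out, and the type I interferon list has its median at 0.58.

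In the mitochondrial set, NARS2, the asparaginyl enzyme, had 5.19 and 6.37 FPKM after silencing and 8.004 and 8.17 FPKM in control. Both silenced libraries were below both controls. The log2 fold change of NARS2 was -0.43 (standard error 0.133, 95% interval -0.81 to -0.05), with an unadjusted p of 0.0353 and an adjusted p = 0.394 in limma. IARS2 had 52.1 and 45.6 FPKM against 59.3 and 60.3 FPKM, also without overlap, with an estimate of -0.29 (standard error 0.121, adjusted p = 0.429 in limma). Both isoleucyl enzymes were thus listed lower in both silenced libraries than in both controls, and neither was a DEG. Taken singly, 31.4% of all genes tested and 7 of the 35 members tested were listed so. MARS and MARS2 were also both listed so, MARS2 being at 0 FPKM in sh-MFAP2 replicate 1. How often both genes of a pair would be listed so was not tested.

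At the upper end, YARS2, the tyrosyl enzyme, had 19.0 and 18.6 FPKM after silencing and 17.4 and 14.3 FPKM in control, an estimate of 0.24 (standard error 0.137). FARS2, the phenylalanyl enzyme, had 10.1 and 8.51 FPKM against 7.61 and 8.32 FPKM, an estimate of 0.20, and VARS2 had 5.99 and 5.30 FPKM against 5.03 and 5.02 FPKM, an estimate of 0.14. In all 3 both silenced libraries were above both controls, and none passed an unadjusted p under 0.05.

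MARS2, the methionyl enzyme and the only member with a single exon, was listed at 0 FPKM after silencing replicate 1 and at 5.47 FPKM after silencing replicate 2, against 5.70 and 6.38 FPKM in control. On the inferred depth, the 0 stood beside 905 to 1441 reads in the other libraries. Its log2 fold change of -1.47 (standard error 0.987, adjusted p = 0.564 in limma) rests on that library, since it was -0.12 without sh-MFAP2 replicate 1. Listings of this kind, under 10% of the gene's highest value in at least 1 library with 5 FPKM or more in another, were found for 46.7% of 137 single-exon genes tested and for 1.42% of 9720 genes with more exons. MARS2 was the only one of the 35 members tested, or 2.86%, with such a listing, against 2.06% of all 9873 genes tested. The part of the exon number in it was not tested.

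PARS2, with 2 exons, was listed at 0.0147 and 0 FPKM after silencing and at 0.0205 and 0.00162 FPKM in control, and was not tested. At the inferred depth these values amount to 3 reads or fewer in each library. WARS2, the next lowest, had 2.27 and 1.64 FPKM after silencing and 2.015 and 2.495 FPKM in control. LARS2, the leucyl enzyme, had 3.74 and 5.97 FPKM against 5.52 and 6.39 FPKM, with groups that overlapped and an estimate of -0.27.

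HARS and HARS2 are transcribed away from each other on chromosome 5 of GRCh38. HARS runs from 140673904 to 140691862 on the minus strand and HARS2 from 140691426 to 140699318 on the plus strand (GENCODE 29), so that the gene models overlap by 437 bases, and their RefSeq start sites lie 85 bases apart. HARS had 11.7 and 8.71 FPKM after silencing and 8.70 and 9.49 FPKM in control. HARS2 had 19.6 and 12.6 FPKM against 15.0 and 15.9 FPKM. Both genes were highest in sh-MFAP2 replicate 1, and both overlapped between groups, with estimates of 0.14 for HARS (standard error 0.175) and 0.02 for HARS2 (standard error 0.240). Of the 36 members, 11 overlap a gene of at least 1 FPKM in the mean, among them MARS, which overlaps DDIT3 on the other strand. Whether reads were counted by strand is not given in the sources used here, so reads in these overlaps may belong to either gene.

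Transcript values showed more movement than gene values. The table listed 390 transcripts of the 36 genes, of which 76 had a mean of at least 1 FPKM. For 34 genes a leading transcript could be named in all 4 libraries. It was the same transcript in 29 genes and changed between libraries in 5, namely QARS, EARS2, VARS2, CARS and WARS. In 12 genes the transcript with the highest mean held 90% or more of the summed FPKM in every library. QARS, the glutaminyl enzyme, moved most. Its transcript ENST00000306125 held 85.3% and 80.5% in sh-MFAP2, 20.4% in control replicate 1 and 86.3% in control replicate 2. In control replicate 1 the lead passed to ENST00000464962, with 36.2 FPKM there and 0.681 to 2.31 FPKM elsewhere. The gene value of QARS, at 42.5 and 29.1 FPKM after silencing and 32.1 and 38.9 FPKM in control, did not set control replicate 1 apart.

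For WARS the transcripts ENST00000355338 and ENST00000392882, both of 11 exons, exchanged the lead. The first had 20.7 and 15.9 FPKM after silencing and 15.8 and 3.27 FPKM in control. The second had 9.28 and 13.9 FPKM against 13.7 and 28.1 FPKM. Control replicate 2 stood apart in both, whereas control replicate 1 resembled sh-MFAP2 replicate 2. In CARS, the cysteinyl enzyme, ENST00000278224 held 59.4% and 54.5% in sh-MFAP2 replicate 1 and control replicate 2, and 26.8% and 20.3% in the other libraries. The leading transcript changed between replicates of the sh-MFAP2 group in 3 genes and between replicates of the control group in 3 genes, and in no gene did both libraries of 1 group share a leader that differed from a leader shared by the other group.

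**Figure D4:**
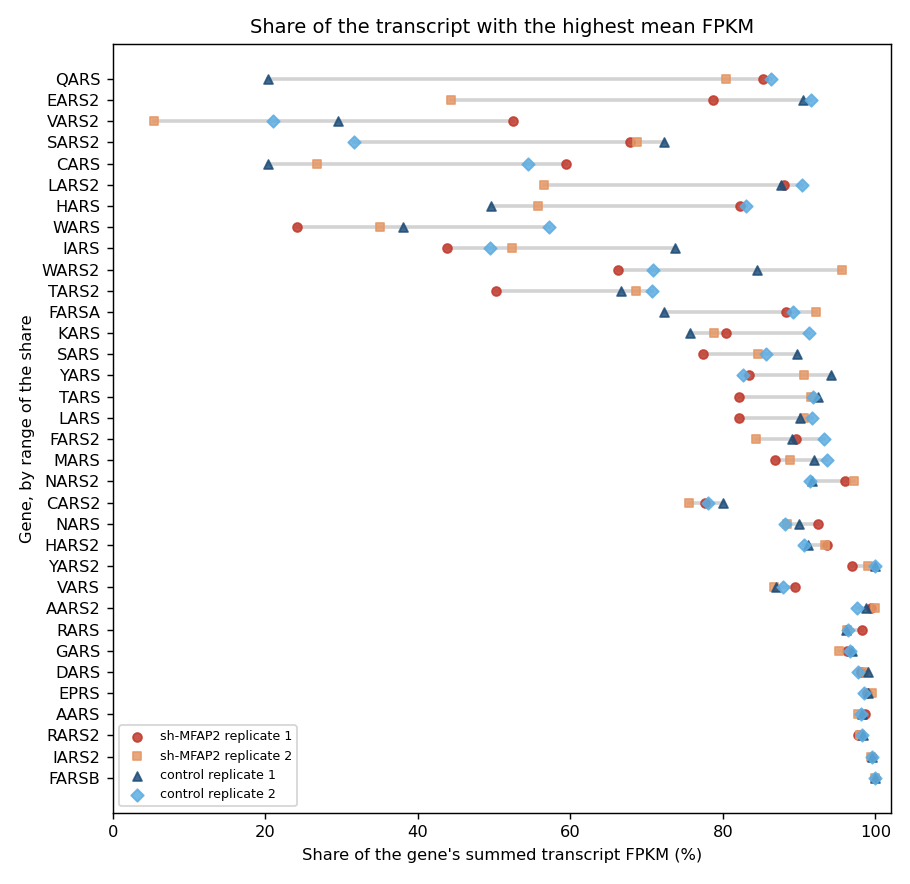
Share of each gene's summed transcript FPKM held by the transcript with the highest mean, in percent, for 34 synthetase genes, with 1 point per library and a grey bar over their range. FARSB and IARS2 have 1 dominant transcript in all libraries, while the share in QARS ranges from 20.4% to 86.3%.

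The amino acid response, to which ATF4 and its known targets belong, gave mixed values. Of 24 tested genes of this list, 2 were higher and 1 lower at an unadjusted p under 0.05. That is 12.5%, against 12.3% of all genes tested. Both silenced libraries lay above both controls for 37.5% of the tested genes of the list, against 17.5% of all genes tested. They lay below both controls for 20.8% of the list, against 31.4%. None of the list was a DEG, and its median log2 fold change was 0.11. ATF4 had 125 and 128 FPKM after silencing and 39.8 and 96.6 FPKM in control, without overlap but with controls far apart (log2 fold change 1.01, standard error 0.469, adjusted p = 0.460 in limma). ASNS had 6.735 and 6.34 FPKM against 4.58 and 4.49 FPKM, an estimate of 0.45 with an adjusted p = 0.341 in limma. SLC1A5, a glutamine transporter, had 127 and 124 FPKM against 74.4 and 50.5 FPKM (estimate 1.02, adjusted p = 0.337 in limma). CEBPB, a single-exon gene for a C/EBP factor, was listed at 0 in both silenced libraries and at 3.15 and 5.46 FPKM in control. The 7 cytosolic synthetases with the TGATGNAA core had estimates from -0.33 for IARS to 0.25 for NARS, on both sides of 0.

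EIF2AK4 encodes GCN2, the kinase that binds uncharged tRNA and leads to ATF4. It had 8.33 and 9.16 FPKM after silencing and 11.6 and 11.3 FPKM in control, both below (estimate -0.35, unadjusted p of 0.0336 and adjusted p = 0.394 in limma). It was the 1 gene of 5 in the list of kinases of eIF2alpha with GCN1 that passed an unadjusted p under 0.05. Of all genes tested, 12.3% passed this limit, 8.41% being lower in sh-MFAP2, so counts in lists this short say little. Factors that act after charging had estimates on both sides of 0. The 4 tested genes of elongation factor 1, which carries charged tRNA to the ribosome, had a median of 0.11 and ran from -0.04 to 0.33. The 10 mitochondrial translation factors had a median of -0.05 and ran from -0.44 to 0.10. No gene of either list passed an unadjusted p under 0.05. None of the 3 genes of the mitochondrial amidotransferase, which completes glutaminyl-tRNA in mitochondria, passed it. Among editing and related genes PTRH2, a peptidyl-tRNA hydrolase, had 9.82 and 10.2 FPKM after silencing and 7.53 and 7.01 FPKM in control, higher at an unadjusted p under 0.05 (adjusted p = 0.361 in limma).

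Of the 22 mitochondrial tRNA genes, the substrates of the mitochondrial set, 2 reached a mean of 1 FPKM, both lower in sh-MFAP2. MT-TF, the tRNA charged by FARS2, was listed at 0 and 0.0071 FPKM after silencing and at 34.6 and 38.4 FPKM in control and was a DEG (adjusted p = 0.00878 in limma). No gene was a DEG in limma with the replicate number as a block or with any library left out (722 and 555 to 2166 genes at an unadjusted p under 0.05), and MT-TF has a single exon, the class in which listings near 0 were frequent. MT-TP, the tRNA charged by PARS2, had 20.6 and 9.70 FPKM against 193 and 231 FPKM (adjusted p = 0.136 in limma). The other 20 were listed at 0.000238 FPKM or less in every library, and none of these values is read as a level of mature tRNA. FARS2 had an estimate of 0.20 with a 95% interval from -0.18 to 0.57, and PARS2 was too low to test.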

How the data were processed

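RNA of AGS cells was measured in 4 libraries, 2 of cells with an shRNA against MFAP2 and 2 of control cells. Gene and transcript tables were deposited by the authors without a named unit, and their numbers behave as FPKM. Per the labels the build was hg38. The aligner and the program that made the FPKM are not given in the sources used here. Members were matched by symbol, and annotation came from GENCODE 29.

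The 9873 genes averaging 1 FPKM or more entered a linear model of log2(FPKM + 1) in limma 3.58.1 (R 4.3.3), whose eBayes step used the trend option, and p was adjusted by Benjamini-Hochberg. The pseudocount of 1 understates changes of low genes. An exact permutation test of 2 against 2 cannot go below a two-sided p of 0.333. Of low values, 55.5% to 56.0% lay on whole steps, within 0.05 of a step, against 10% by chance, so reads were not recovered and no count test was run.

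Genes named are the members, with full values for WARS, those at an unadjusted p under 0.05, the 3 highest and 3 lowest estimates of each set, near-zero listings and the histidyl pair, and from other lists those at an unadjusted p under 0.05, at most 6 a list, with ATF4, ASNS and IRF1. VARS, GARS, KARS, LARS2, WARS2, QARS, CARS, the other scaffold genes and the markers are named outside this rule, after their values were seen. Members, lists and motifs were chosen with earlier results of these data known. Python 3.11.15, pandas 2.3.3, numpy 2.4.6 and matplotlib 3.10.9 were used. Some genes of the lists are not reported here.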

Additional observations from a re-analysis of the deposited data

How the results depend on the processing

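No member was a DEG under any of the alternatives run, in 418 fits, where the lowest adjusted p of a member was 0.132 in limma. Of the 35 members, 17 kept their direction under every alternative and 18 changed it under at least 1. The DEG count over all genes, 27, was 46 when only an adjusted p under 0.1 was asked for, 1214 for an unadjusted p under 0.05, 9 among genes averaging 5 FPKM or more, 6 with no filter, 0 with the replicate number as a block (722 genes at an unadjusted p under 0.05) and 0 with any library left out (555 to 2166 genes at an unadjusted p under 0.05, the lone library being assumed to vary like the other group). The correlation, over genes, of deviations between libraries of equal number was -0.0572, so no shared shift by replicate number was seen over the genes as a whole. A pairing that moved only few genes would not show in this value. Members at an unadjusted p under 0.05, 2 in all, were 1 with quantile normalization, 1 with scaling by median of ratios, 0 with the replicate block and 0 to 4 with a library left out.

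Scaling by median of ratios moved the median of all genes from -0.0525 to 0.00556 and turned the sign of AARS (0.0429), GARS (0.0151), LARS (0.0577), QARS (0.0633), RARS (0.0231) and WARS (0.0031). Quantile normalization turned LARS (0.0407) and QARS (0.0109), and summed transcripts turned HARS2 (-5.82e-05), LARS (0.0061) and TARS2 (0.0029). The median of the mitochondrial set was -0.0222 with quantile normalization and -0.0055 with median of ratios, that of elongation factor 1 was 0.185 and that of mitochondrial translation factors 0.0142 with median of ratios. On omitting single libraries, the cytosolic median ran from -0.10 to 0.17, the mitochondrial median from -0.0880 to 0.00503, their difference from -0.10 to 0.26 and the median of mitochondrial translation factors from -0.14 to 0.0594. The estimates so obtained crossed 0 for AARS (-0.29 to 0.24), AARS2 (-0.235 to 0.0160), CARS2 (-0.00773 to 0.17), EPRS (-0.41 to 0.0188), HARS (-0.0544 to 0.33), HARS2 (-0.28 to 0.32), KARS (-0.0719 to 0.29), LARS (-0.0682 to 0.05001), LARS2 (-0.55 to 0.00503), QARS (-0.27 to 0.26), RARS (-0.12 to 0.0270), RARS2 (-0.22 to 0.0740), TARS (-0.265 to 0.0370), WARS (-0.23 to 0.10), WARS2 (-0.30 to 0.0104) and YARS (-0.35 to 0.17). The cause was not tested. MARS2 and WARS2 are not tested among genes averaging 5 FPKM or more, and PARS2 was not refitted. Depth is inferred, so no counting interval is given for single values.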
